A study of Mus musculus with 21 samples.

Results

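Detoxification enzymes of the lung were followed as 9 genes of the 12393 genes measured: the glutathione transferases Gsta2, Gsta3, Gsta4, Gstm1 and Gsto1, the cytochromes P450 Cyp2f2, Cyp1a1 and Cyp1b1, and the aldehyde dehydrogenase Aldh1a1. Members were all probe sets that the array's platform annotation gives to 1 of these symbols, which took 16 of 22626 probe sets. Female BALB/c mice, 8 weeks old, had 1 aspiration into the trachea, and RNA came from the snap-frozen, homogenized left lung. Mice received MACA, a crude fungal antigen from Metarhizium anisopliae, at 20 µg in 50 µl HBSS, bovine serum albumin (BSA, 20 µg in 50 µl HBSS) as the other protein, or 50 µl of the vehicle HBSS alone. At 3 h there were 4 MACA, 3 BSA and 3 HBSS lungs, and at 12 h there were 3 MACA, 4 BSA and 4 HBSS lungs, each on its own array. No untreated lung was among the 21 arrays, so every control lung had also been aspirated.

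Club cells, the secretory cells of the small airways, are rich in cytochromes P450, which oxidise foreign compounds and can leave reactive products. Glutathione transferases join such electrophiles to glutathione so that they can be exported, and aldehyde dehydrogenases oxidise reactive aldehydes. Cyp1a1 and Cyp1b1 are classical targets of the aryl hydrocarbon receptor (AhR), and several glutathione genes are targets of Nrf2, the transcription factor of the response to oxidants.

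In brief, Gsta2, Gsta3 and Gsta4 were lower in MACA lungs than in HBSS lungs at 12 h with no overlap of the arrays, and Gsta2 was 9.45-fold lower. The other probe set of Gsta3 did not show that difference (log2 fold -0.08). Aldh1a1 and Cyp1a1 were also called lower. With a split of the arrays by a spiked control, described with the levels, as a term of the fit, neither passed (limma adjusted p = 0.106 and 0.177). In BSA 12 h lungs that split cannot be told apart from a difference between replicates. Cyp2f2, the P450 that defines club cells, did not pass the test in any of the 11 comparisons, and neither did Cyp1b1. At 3 h only Gsta3 passed, lower in MACA lungs than in HBSS lungs. Gsta2 was the most variable member, and its level in vehicle lungs also differed between the times.

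Promoters of 3 members whose level passed the test are shown, because they hold a match to a motif searched. Promoter windows of RefSeq (build GRCm38.p6), 250 bases before to 50 bases after a start, were found for 8 of the 9 genes, in 10 windows. The letters GCGTG, the core that AhR binds, and TGACNNNGC, the core of the antioxidant response element that Nrf2 binds, were searched on both strands. Capitals mark a match, and the positions of the 2 motifs did not overlap. The Gsta2 window is chr9:78347096-78347395 on the minus strand, the Gsta3 window chr1:21240335-21240634 on the plus strand, and the Cyp1a1 window chr9:57697363-57697662 on the plus strand.
Gsta2: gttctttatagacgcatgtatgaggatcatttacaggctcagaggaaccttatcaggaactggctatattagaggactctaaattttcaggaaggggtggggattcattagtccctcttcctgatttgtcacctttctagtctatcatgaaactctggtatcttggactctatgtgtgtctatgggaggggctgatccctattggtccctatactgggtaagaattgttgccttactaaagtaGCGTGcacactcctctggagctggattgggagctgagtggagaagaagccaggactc
Gsta3: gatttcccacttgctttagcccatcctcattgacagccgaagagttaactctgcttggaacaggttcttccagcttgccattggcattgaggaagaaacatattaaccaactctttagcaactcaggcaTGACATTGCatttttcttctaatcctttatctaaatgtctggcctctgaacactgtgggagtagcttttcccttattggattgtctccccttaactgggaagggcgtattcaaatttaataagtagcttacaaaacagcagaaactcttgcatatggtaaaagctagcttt
Cyp1a1: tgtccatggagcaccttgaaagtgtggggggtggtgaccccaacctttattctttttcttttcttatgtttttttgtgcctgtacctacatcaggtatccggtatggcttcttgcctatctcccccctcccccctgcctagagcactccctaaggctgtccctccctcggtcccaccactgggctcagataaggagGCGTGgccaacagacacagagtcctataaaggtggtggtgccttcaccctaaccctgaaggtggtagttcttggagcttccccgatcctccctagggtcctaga
GCGTG stood in windows of 4 members (Gsta2, Gstm1, Cyp1a1 and Cyp1b1) and in 32.4% of all 32851 windows. TGACNNNGC stood in the window of 1 member, Gsta3, and in 12.4% of all windows. The GCGTG of Gsta2 began 7 bases before the start (position -7), that of Cyp1a1 at position -54, and the TGACNNNGC of Gsta3 at position -121. Such a match is a run of letters and not a measured binding site. In the gene order of this assembly, Gsta4 is next to Gsta1 and Gm3776, Cyp1a1 is next to Cyp1a2, Gstm1 lies between Gstm2 and Gstm4, Gsto1 is next to Gsto2, and Aldh1a1 is next to Aldh1a7.

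Levels are log2(intensity + 16) after quantile normalization between arrays, and a gene is represented by its brightest probe set. Differences were tested with limma across all 12393 genes, with Benjamini-Hochberg adjusted p under 0.05 as the threshold and the standard error (SE) of the fit beside each fold. In these bulk samples fewer cells of a type and less RNA per cell cannot be told apart. Deposited median intensities lay between 93 and 287 per array, and for arrays their number limits the precision. A spiked control's ratio of 3' to 5' probe sets split the arrays into a high set of 13 (ratios 1.62 to 1.91) and a low set of 8 (0.939 to 1.22). The low set held replicates 3 and 4 of MACA 3 h, replicates 3 and 4 of BSA 12 h and all 4 HBSS 12 h arrays, so at 12 h MACA and HBSS shared no set, and only a fit that includes the set can compare them. Scgb1a1, the secretoglobin that marks club cells, lay at 13.62 to 13.76 on all 21 arrays, at the top of the scale, where a difference would be hard to see. All 9 members were above the noise level (log2 5.83) on all 21 arrays.

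**Figure D1:**
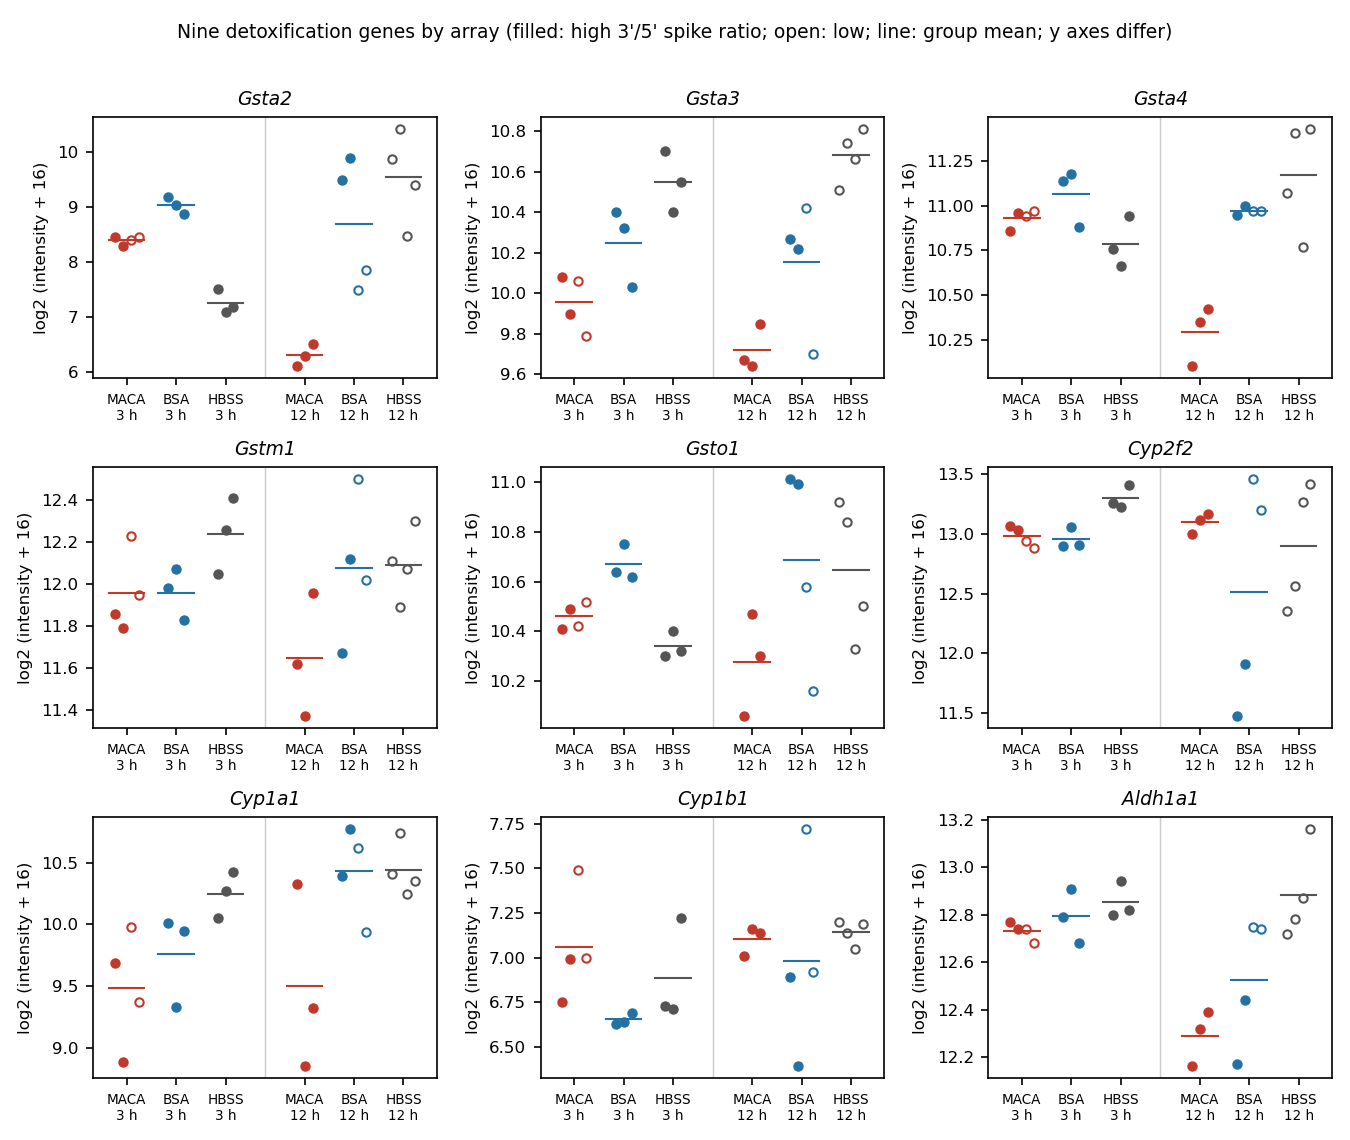
Each panel plots 1 gene as log2(intensity + 16) for each of the 21 arrays, by agent and time, with a line at the group mean and its own y axis. Filled points are arrays of the high spike-ratio set and open points of the low set. Gsta2 lies at 6.11 to 6.52 on the 3 MACA 12 h arrays, below the other 18.

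Gsta2, an alpha-class glutathione transferase (probe set 1421040_a_at), spanned 4.31 log2 units over the 21 arrays, a wider range than 99.7% of genes. At 3 h its log2 level was 8.46, 8.30, 8.40 and 8.45 in MACA lungs, 9.18, 9.04 and 8.88 in BSA lungs, and 7.52, 7.09 and 7.18 in HBSS lungs. At 12 h it was 6.11, 6.29 and 6.52 in MACA lungs, 9.50, 9.89, 7.50 and 7.86 in BSA lungs, and 9.88, 10.42, 8.48 and 9.41 in HBSS lungs. The 3 MACA 12 h arrays were thus the lowest of all 21, whereas at 3 h the HBSS arrays were the lowest of their time. The order of group means ran from HBSS 12 h through BSA 3 h, BSA 12 h, MACA 3 h and HBSS 3 h to MACA 12 h. The arrays of the first 4 groups overlapped from one to the next in that order, and those of MACA 3 h, HBSS 3 h and MACA 12 h did not.

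Against HBSS at 12 h, Gsta2 averaged 6.31 ± 0.21 in MACA lungs (SD, n = 3) and 9.55 ± 0.82 in HBSS lungs (SD, n = 4), a log2 fold of -3.24 ± 0.48 (SE; limma adjusted p = 0.000317). With the spike-ratio set as a term the log2 fold was -4.23 (limma adjusted p = 0.000521). For Gsta2 the set effect in that fit came mainly from BSA 12 h lungs. There replicates 1 and 2 (high set) exceeded replicates 3 and 4 (low set), while in MACA 3 h lungs the sets lay close together. HBSS 12 h lungs, all of the low set, showed the same split of replicates. Set and replicate split can therefore not be told apart in BSA 12 h lungs. Against BSA at 12 h the log2 fold was -2.38 ± 0.48 (limma adjusted p = 0.00608), with BSA lungs at 8.69 ± 1.18 (SD, n = 4). Within the high set, which held all 3 MACA arrays and BSA replicates 1 and 2, the MACA against BSA log2 fold was -3.39 (limma adjusted p = 5.79e-05). Those BSA replicates had higher Gsta2 than replicates 3 and 4. A fit of the MACA and BSA groups alone at 12 h, in which 0 of all genes passed, ended the call (-2.38, limma adjusted p = 0.13), as did leaving the arrays unscaled (-2.43, 0.0815).

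Earlier, at 3 h, Gsta2 lay the other way against vehicle. The log2 fold was 1.14 ± 0.48 for MACA against HBSS (limma adjusted p = 0.158) and 1.77 ± 0.51 for BSA against HBSS (limma adjusted p = 0.19), so neither passed across all genes, although the arrays did not overlap. Fits of the groups of a comparison alone called both (limma adjusted p = 0.0112 for MACA and 0.0228 for BSA), as did fits within the high set (0.0101 and 0.000568). The difference between MACA and HBSS changed between the times by -4.38 ± 0.68 log2 units (12 h minus 3 h; limma adjusted p = 0.00598). The corresponding change for MACA against BSA was -1.75 ± 0.68 (limma adjusted p = 0.2), and -2.74 (0.00329) within the high set, which leaves out the BSA 12 h arrays with the lower Gsta2.

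Both sides of that change moved. In MACA lungs Gsta2 was 4.28-fold lower at 12 h than at 3 h (log2 fold -2.10 ± 0.48, limma adjusted p = 0.0097). In HBSS lungs it was 4.87-fold higher at 12 h than at 3 h (log2 fold 2.28 ± 0.48, limma adjusted p = 0.0105), the only call of a member in that comparison, in which 4.07% of all genes were called higher and 7.88% in either direction. Time and spike-ratio set cannot be told apart within HBSS, since the 12 h arrays were all in the low set and the 3 h arrays all in the high set. In BSA lungs the time difference was -0.35 ± 0.48 (limma adjusted p = 0.726).

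A further probe set, 1421041_s_at, is annotated to Gm3776, Gsta2 and Gsta1 together and therefore stands outside the rule. It measured 6.20, 6.35 and 6.66 in MACA 12 h lungs, 10.83, 10.89, 7.41 and 8.07 in BSA 12 h lungs and 11.02, 11.38, 9.04 and 10.04 in HBSS 12 h lungs. Tested among all probe sets, it was lower in MACA lungs at 12 h against HBSS (log2 fold -3.97 ± 0.70, limma adjusted p = 0.00137) and against BSA (-2.90 ± 0.70, limma adjusted p = 0.0206). Its 12 h arrays fell in the same order of groups as those of Gsta2. Which of the 3 near-identical genes gave its signal cannot be told apart.

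Gsta3, an alpha-class transferase that in mice conjugates the epoxide of aflatoxin, was the member called at 3 h. Its log2 level then was 10.08, 9.90, 10.06 and 9.79 in MACA lungs, 10.40, 10.32 and 10.03 in BSA lungs, and 10.70, 10.40 and 10.55 in HBSS lungs. At 12 h it was 9.67, 9.64 and 9.85 in MACA lungs, 10.27, 10.22, 10.42 and 9.70 in BSA lungs, and 10.51, 10.74, 10.66 and 10.81 in HBSS lungs. MACA arrays lay below all HBSS arrays at both times, and BSA arrays, between them on average, overlapped MACA arrays at both.

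For MACA against HBSS the Gsta3 log2 fold was -0.59 ± 0.14 at 3 h (limma adjusted p = 0.0184) and -0.95 ± 0.14 at 12 h (limma adjusted p = 0.000328), or 1.94-fold lower at 12 h. The 3 h log2 fold stayed near this size, but no longer passed, without MACA replicate 4 (-0.53, limma adjusted p = 0.0611), HBSS replicate 1 (-0.51, 0.0851) or HBSS replicate 3 (-0.59, 0.0624). The size did not differ detectably between the times (change -0.37 ± 0.20, limma adjusted p = 0.329). At 12 h the MACA against BSA log2 fold was -0.43 ± 0.14 (limma adjusted p = 0.0677), and -0.58 (0.00936) without BSA replicate 4. For BSA against HBSS at 12 h it was -0.53 ± 0.13, just short of the threshold (limma adjusted p = 0.0567), and it passed with the spike-ratio set as a term (-0.59, 0.0182). The other probe set of the gene, 1423437_at, above the noise level on every array, did not show the difference at 12 h. Its MACA against HBSS log2 fold was -0.08 ± 0.30 (limma adjusted p = 0.923 among all probe sets). It averaged 9.70 in MACA and 9.78 in HBSS lungs at 12 h, against 9.72 and 10.68 for the brighter probe set. At 3 h the log2 fold of 1423437_at was -0.76 ± 0.30 (limma adjusted p = 0.15).

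Gsta4, the alpha-class transferase that conjugates hydroxynonenal, a product of lipid peroxidation, was lower in MACA lungs at 12 h and was not called at 3 h. At 12 h its log2 level was 10.10, 10.35 and 10.42 in MACA lungs, 10.95, 10.97 and 10.97 in BSA replicates 1, 3 and 4, with replicate 2 the highest (mean of the 4, 10.97 ± 0.02, SD), and 11.07, 11.41, 10.77 and 11.43 in HBSS lungs. At 3 h it was 10.86, 10.96, 10.94 and 10.97 in MACA lungs, 11.14, 11.18 and 10.88 in BSA lungs, and 10.76, 10.66 and 10.94 in HBSS lungs. The 3 MACA 12 h arrays again lay below the other 18, while the groups overlapped at 3 h.

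Gsta4 was 1.84-fold lower in MACA than in HBSS lungs at 12 h (log2 fold -0.88 ± 0.13, limma adjusted p = 0.000328) and 1.6-fold lower than in BSA lungs (-0.68 ± 0.13, limma adjusted p = 0.00474). Within the high set the MACA against BSA log2 fold was -0.69 (limma adjusted p = 0.024). The call, though not the size, was lost in a fit of these 2 groups alone (-0.68, limma adjusted p = 0.0514) and without scaling (-0.78, 0.162). In MACA lungs the level was 1.56-fold lower at 12 h than at 3 h (log2 fold -0.64 ± 0.13, limma adjusted p = 0.00465). Its MACA against HBSS difference changed between the times by -1.02 ± 0.19 (limma adjusted p = 0.00973). With the spike-ratio set as a term the change was of like size but did not pass (-1.0, limma adjusted p = 0.0616).

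**Figure D2:**
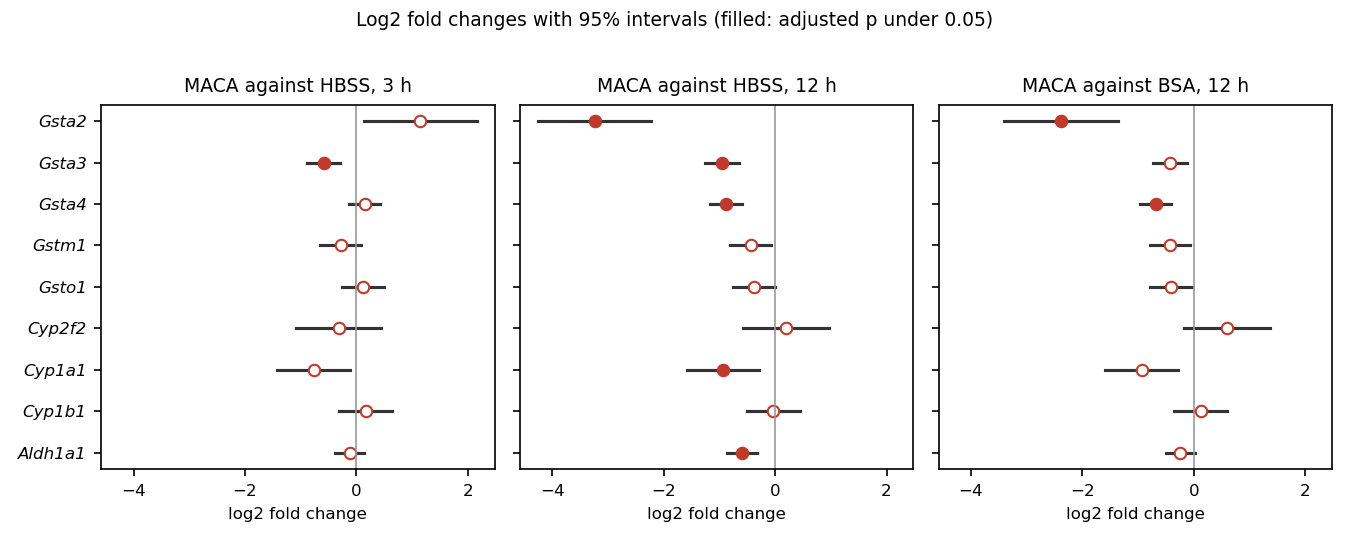
Log2 fold changes of the 9 genes are plotted with 95% intervals of the fit, for MACA against HBSS at 3 h and 12 h and MACA against BSA at 12 h. Filled points passed limma adjusted p under 0.05: Gsta3 at 3 h, 5 genes against HBSS at 12 h, and Gsta2 and Gsta4 against BSA at 12 h.

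Gstm1, a mu-class transferase, had 4 probe sets, and the brightest, 1416416_x_at, did not pass at either time. At 12 h it measured 11.62, 11.37 and 11.96 in MACA lungs, 11.67, 12.12, 12.50 and 12.02 in BSA lungs, and 12.11, 11.89, 12.07 and 12.30 in HBSS lungs. MACA replicate 3 overlapped the controls, and the MACA against HBSS log2 fold was -0.44 ± 0.17 (limma adjusted p = 0.0814).

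The other 3 Gstm1 probe sets passed at 12 h when all probe sets were tested. Their MACA against HBSS log2 folds were -0.45 ± 0.13 for 1448330_at (limma adjusted p = 0.0287), -1.13 ± 0.29 for 1425627_x_at (0.0127) and -1.47 ± 0.37 for 1425626_at (0.0121). Against BSA, 1448330_at (-0.51 ± 0.13, limma adjusted p = 0.0296) and 1425627_x_at (-1.01 ± 0.29, 0.0439) passed as well. The probe sets ending in x can bind transcripts of related mu-class genes, so which Gstm gene they read is uncertain. In BSA 12 h lungs, 1425627_x_at measured 8.45 and 8.81 in replicates 1 and 2, which were in the high set, and 10.07 and 9.67 in replicates 3 and 4, which were in the low set. It measured 8.34, 8.00 and 8.39 in MACA 12 h lungs, all in the high set, and 9.47, 9.26, 9.30 and 9.48 in HBSS 12 h lungs, all in the low set. The part of the spike-ratio set in these differences was not tested for single probe sets.

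**Figure D3:**
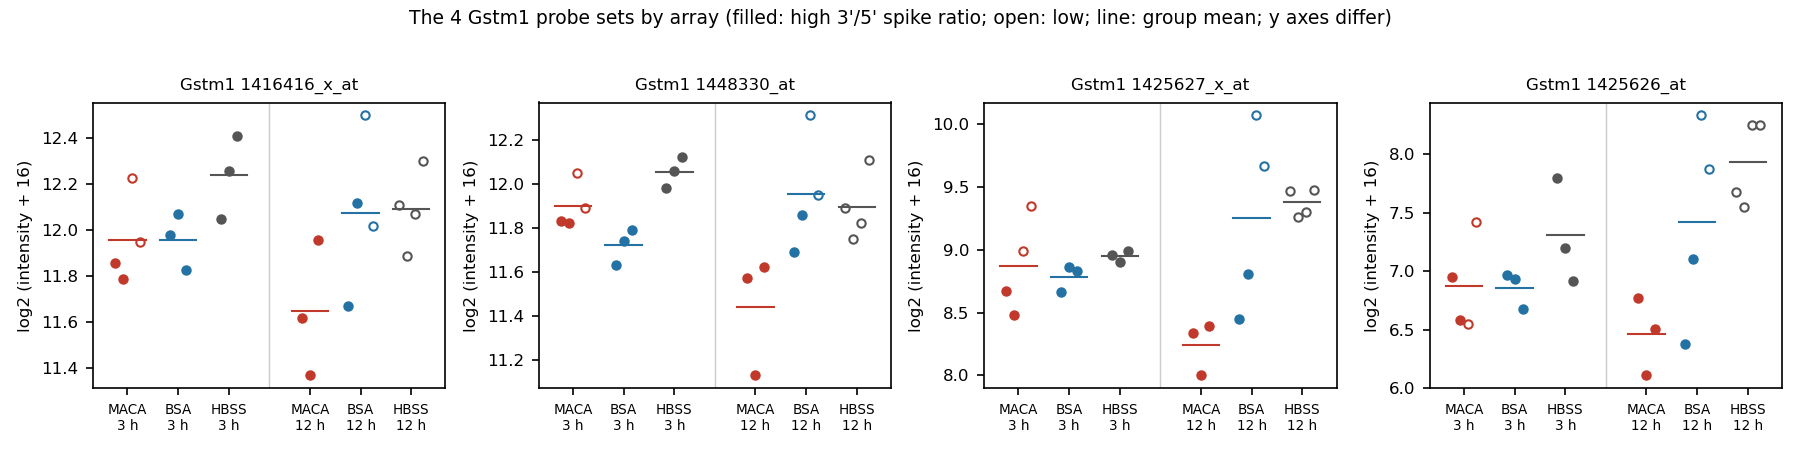
The 4 Gstm1 probe sets are plotted as log2(intensity + 16) on each array by agent and time, with a line at the group mean and separate y axes. In BSA 12 h lungs the high-set arrays (filled) of 1425627_x_at lie at 8.45 and 8.81 and the low-set arrays (open) at 10.07 and 9.67.

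Gsto1, the omega-class transferase that removes glutathione from proteins, did not pass in any of the 11 comparisons. At 12 h its log2 level was 10.06, 10.47 and 10.30 in MACA lungs, 11.01, 10.99, 10.58 and 10.16 in BSA lungs, and 10.92, 10.84, 10.33 and 10.50 in HBSS lungs. The groups overlapped, and the log2 fold was -0.38 ± 0.17 against HBSS (limma adjusted p = 0.145) and -0.41 ± 0.17 against BSA (0.153). With the spike-ratio set as a term the difference from HBSS passed (-0.68, limma adjusted p = 0.0422), and within the high set so did that from BSA (-0.73, 0.00932). The high-set BSA arrays, at 11.01 and 10.99, were the highest of their group. At 3 h Gsto1 lay between 10.30 and 10.75 on all 10 arrays. Its groups did not overlap there, at 10.62 to 10.75 in BSA, 10.41 to 10.52 in MACA and 10.30 to 10.40 in HBSS lungs. A further probe set, 1456036_x_at, read 9.48 and 9.72 on MACA 3 h replicates 3 and 4 and 9.67 and 9.74 on BSA 12 h replicates 3 and 4, below its other 17 arrays. These 4 arrays were all in the low set, as were the HBSS 12 h arrays, which read 10.61 to 10.97.

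Cyp2f2, the club cell P450 that oxidises naphthalene, was among the brightest genes of the lung, with only 0.282% of genes above it on average. At 3 h its log2 level was 13.07, 13.03, 12.94 and 12.88 in MACA lungs, 12.90, 13.06 and 12.91 in BSA lungs, and 13.26, 13.23 and 13.41 in HBSS lungs. At 12 h it was 13.00, 13.12 and 13.17 in MACA lungs, 11.47, 11.91, 13.46 and 13.20 in BSA lungs, and 12.35, 12.56, 13.27 and 13.42 in HBSS lungs. The spread thus lay in the 12 h control lungs, in which replicates 1 and 2 were low and replicates 3 and 4 high in both control groups. The MACA against HBSS log2 fold was -0.32 ± 0.36 at 3 h (limma adjusted p = 0.655) and 0.20 ± 0.36 at 12 h (limma adjusted p = 0.777). At 3 h all MACA and BSA arrays lay below all HBSS arrays. The SE is shared by all groups, and so includes the spread of the 12 h controls (SD 0.97 in BSA and 0.53 in HBSS lungs). The MACA against BSA difference at 12 h was 0.59 ± 0.36 (limma adjusted p = 0.344), and 1.41 (limma adjusted p = 0.000921) within the high set, where the BSA arrays were the 2 low ones.

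Set side by side by array, Gsta2 was high in the 12 h control lungs in which Cyp2f2 was low. BSA 12 h replicates 1 and 2 had Gsta2 at 9.50 and 9.89 with Cyp2f2 at 11.47 and 11.91, and replicates 3 and 4 had Gsta2 at 7.50 and 7.86 with Cyp2f2 at 13.46 and 13.20. In HBSS 12 h lungs, all of the low set, replicates 1 and 2 had Gsta2 at 9.88 and 10.42 with Cyp2f2 at 12.35 and 12.56, and replicates 3 and 4 had Gsta2 at 8.48 and 9.41 with Cyp2f2 at 13.27 and 13.42. The MACA 12 h lungs had the lowest Gsta2 and Cyp2f2 between 13.00 and 13.17. The 18 club cell markers other than members had a summed intensity of 43500 to 50900 in MACA 12 h lungs, 37400 to 50700 in BSA 12 h lungs and 37000 to 53600 in HBSS 12 h lungs. These ranges overlapped, and the sum includes Retnla, called higher in MACA than in HBSS lungs at 12 h (mean log2 levels 13.02 and 11.15). Within each control group the sum split as Cyp2f2 did. It was 40500 and 37400 in BSA replicates 1 and 2 and 50600 and 50700 in replicates 3 and 4, and 38100 and 37000 in HBSS replicates 1 and 2 and 44400 and 53600 in replicates 3 and 4. The secretoglobin Scgb3a2, a further club cell marker, split likewise. Its log2 level was 12.51 to 12.69 in MACA 12 h lungs, 11.52 in BSA replicate 2, with replicate 1 lower still, and 13.02 and 12.93 in replicates 3 and 4, and 11.83 and 11.76 in HBSS replicates 1 and 2 and 12.80 and 13.00 in replicates 3 and 4. Squamous epithelium markers, of which 6 of 8 were under the noise level on all 21 arrays, ran the opposite way. Their summed intensity was 117 to 159 in MACA 12 h lungs, 359 and 304 in BSA replicates 1 and 2 and 127 and 112 in replicates 3 and 4, and 250 and 235 in HBSS replicates 1 and 2 and 109 and 99.4 in replicates 3 and 4. The part of these cell markers in the levels of Gsta2 and Cyp2f2 was not tested.

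**Figure D4:**
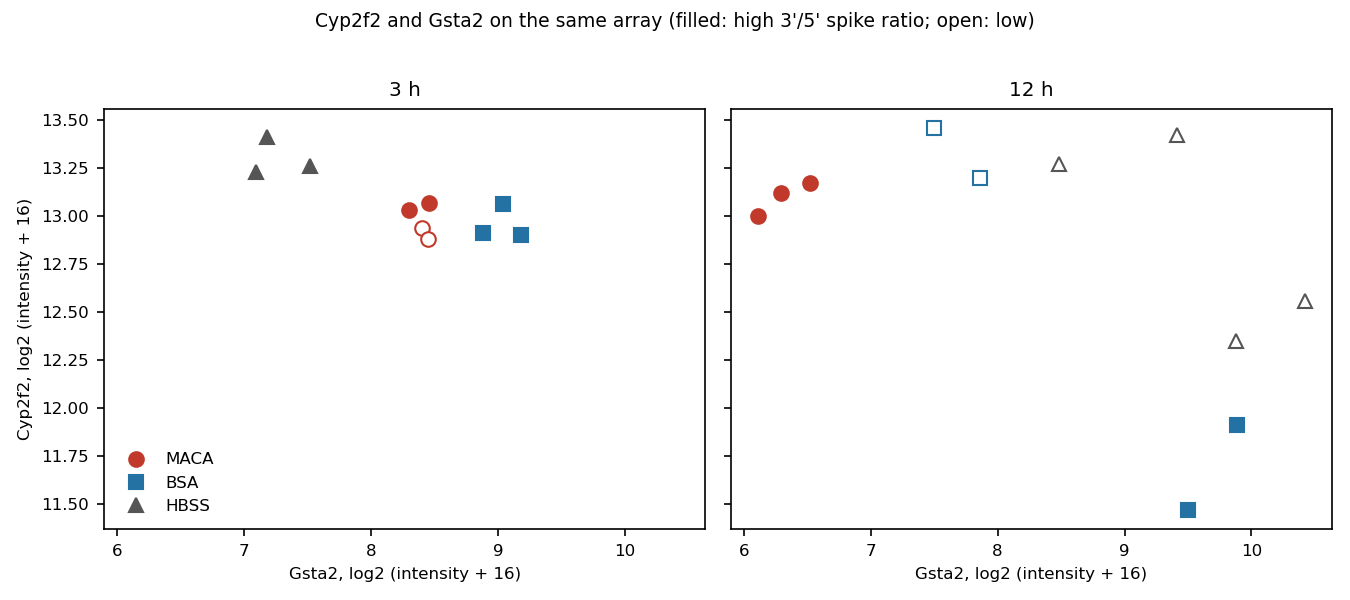
Each point is 1 array, with the log2 level of Gsta2 on the x axis and that of Cyp2f2 on the y axis, at 3 h (left) and 12 h (right). Filled points are arrays of the high spike-ratio set and open points of the low set. The MACA 12 h arrays lie at Gsta2 6.11 to 6.52, and the 12 h control arrays with Cyp2f2 at 12.56 or less have Gsta2 at 9.50 or more.

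Cyp1a1, the P450 through which AhR activity is usually read, was lower in MACA lungs at 12 h against HBSS, with overlapping arrays. At 12 h its log2 level was 10.33, 8.85 and 9.32 in MACA lungs, 10.39, 10.77, 10.62 and 9.94 in BSA lungs, and 10.41, 10.74, 10.25 and 10.35 in HBSS lungs. MACA replicate 1 lay within the range of the controls and replicates 2 and 3 below it. The log2 fold was -0.94 ± 0.31 against HBSS (limma adjusted p = 0.0408) and -0.93 ± 0.31 against BSA (limma adjusted p = 0.068). The call against HBSS was lost in 7 of the 21 fits that left out 1 array. Those were the fits without MACA 12 h replicate 2 (-0.62, 0.236) or 3 (-0.85, 0.121), without any 1 of the 4 HBSS 12 h arrays (0.0525 to 0.104), and without HBSS 3 h replicate 2 (0.0503). It was also lost with the spike-ratio set as a term (-0.90, 0.177) and in a fit of the 2 groups alone (0.114).

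At 3 h Cyp1a1 measured 9.69, 8.89, 9.98 and 9.37 in MACA lungs, 10.01, 9.33 and 9.95 in BSA lungs, and 10.05, 10.27 and 10.42 in HBSS lungs. All MACA and BSA arrays lay below all HBSS arrays, but the log2 fold of -0.76 ± 0.31 for MACA against HBSS did not pass (limma adjusted p = 0.143). Cyp1b1, an AhR target that also metabolises hormones, lay at 6.39 to 7.72 over the 21 arrays and did not pass in any comparison. Its log2 fold was 0.17 ± 0.22 at 3 h (limma adjusted p = 0.714) and -0.04 ± 0.22 at 12 h (limma adjusted p = 0.958) for MACA against HBSS. Its other 2 probe sets did not pass either, but they were too dim to say much about the gene. 1432081_at was under the noise level on all 21 arrays, and every group mean of 1416613_at was under it.

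Aldh1a1, a cytosolic enzyme that makes retinoic acid from retinal and clears aldehydes, had 12.16, 12.32 and 12.39 in MACA 12 h lungs, 12.17, 12.44, 12.75 and 12.74 in BSA 12 h lungs, and 12.72, 12.78, 12.87 and 13.16 in HBSS 12 h lungs. MACA arrays lay below all HBSS arrays, and BSA replicate 1 lay among the MACA arrays. At 3 h the 10 arrays lay between 12.68 and 12.94.

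The MACA against HBSS log2 fold of Aldh1a1 at 12 h was -0.59 ± 0.13 (limma adjusted p = 0.00361). The call was lost with the spike-ratio set as a term (-0.39, 0.106) and with 75th percentile scaling (-0.48, 0.147). In BSA 12 h lungs the high-set arrays had the lower Aldh1a1, and set and replicate split cannot be told apart there. Against BSA the difference was -0.24 ± 0.13 (limma adjusted p = 0.264), and -0.02 (0.988) within the high set, where the BSA arrays were those with the lower Aldh1a1. In MACA lungs the level was 1.36-fold lower at 12 h than at 3 h (log2 fold -0.44 ± 0.13, limma adjusted p = 0.0321). Each of the 7 fits that left out 1 MACA array lost that call (0.0508 to 0.121). It was also lost with the spike-ratio set as a term (-0.34, 0.11), with 75th percentile scaling (-0.46, 0.218) and without scaling (-0.42, 0.335).

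Counted over the 9 genes, MACA against HBSS gave 1 call at 3 h, lower, where 3.28% of all genes were called lower, and 8.12% were called in either direction. At 12 h it gave 5 calls, all lower, where 10.1% of all genes were called lower and 20.2% in either direction. The median log2 fold of the 9 genes at 12 h was -0.59, and that of all genes -0.00. MACA arrays lay wholly below HBSS arrays for 4 of the 9 genes at 12 h, as they did for 17.7% of all genes. At 3 h they lay wholly below for 4, against 10.9% of all genes, and wholly above for 2, against 10.1%.

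MACA against BSA gave no call at 3 h among the 9 genes with limma (0 at an unadjusted p under 0.05 as well, and 1 in a fit of the 2 groups alone), where 5.95% of all genes were called. At 12 h it gave 2, both lower, where 5.58% of all genes were called lower and 9.65% in either direction, and 6 had an unadjusted p under 0.05. BSA against HBSS gave 0 calls with limma at either time, where 0.178% of all genes were called at 3 h and 1.35% at 12 h. There 1 gene at 3 h (Gsta2) and 2 at 12 h (Gsta3 and Aldh1a1) had an unadjusted p under 0.05.

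Between the times, MACA lungs gave 3 calls of 9, all lower at 12 h, where 5.15% of all genes were called lower and 10.7% in either direction, and BSA lungs gave 0 with limma (2 at an unadjusted p under 0.05, with 5.3% of all genes called). Gsta2 and Gsta4 were also the 2 genes whose MACA against HBSS difference changed between the times, a comparison in which 1.84% of all genes were called lower and 3.91% in either direction. The change of MACA against BSA gave 0 calls of the 9 with limma (2 at an unadjusted p under 0.05), with 0.718% of all genes called. The MACA and BSA differences from HBSS share the HBSS arrays, and the MACA differences from HBSS and BSA share the MACA arrays.

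Calls of the gene lists and cell markers that follow come from the fit without the spike-ratio set. At 12 h MACA and HBSS arrays shared no set, and the lists were not tested with the set as a term. With that term 2008 of all genes were called for MACA against HBSS at 12 h, against 2509 without it. Among the other transferases every call in MACA against HBSS lungs was lower. Of 16 measured glutathione transferases outside the members, 1 was lower in MACA than in HBSS lungs at 3 h (Gstt3, log2 fold -0.68 ± 0.17, limma adjusted p = 0.025). At 12 h 4 were lower and none was higher, with limma: Gstm7 (-0.79 ± 0.19), Gstk1 (-0.67 ± 0.23), Gstm5 (-0.36 ± 0.11) and Gstp1 (-0.28 ± 0.09). Their median log2 fold at 12 h was -0.36, against -0.00 for all genes.

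Of 17 measured genes of glutathione synthesis, recycling and breakdown, 3 were higher, 1 was lower and 13 were not called in MACA against HBSS lungs at 3 h, where 8.12% of all genes were called. The median log2 fold was 0.46 (-0.02 for all genes). Against BSA at 3 h, 0 of the 17 were called with limma (4 at an unadjusted p under 0.05) and the median was 0.04. Against HBSS at 3 h, Slc7a11, the cystine transporter that supplies cysteine, was at least 3.13-fold higher, its HBSS arrays being under the noise level. Gclc, the catalytic subunit of glutathione's rate-limiting ligase, had a log2 fold of 1.21 ± 0.23 (limma adjusted p = 0.00361), and Chac1, which degrades glutathione, 1.45 ± 0.28 (limma adjusted p = 0.00476). Gpx8, a peroxidase of the endoplasmic reticulum, was lower (-0.57 ± 0.11, limma adjusted p = 0.00388).

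At 12 h, 1 of the 17 was higher and 2 were lower. Glrx, a glutaredoxin, had a log2 fold of 0.72 ± 0.13, while Gss, glutathione synthetase, had -0.76 ± 0.16 and Gpx7 had -0.57 ± 0.15. The median was -0.01.

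Of 8 measured genes of the AhR pathway, 0 were called with limma at 3 h (0 at an unadjusted p under 0.05) and 2 were lower at 12 h. Those were Nqo1, a quinone reductase (log2 fold -1.58 ± 0.27, limma adjusted p = 0.000785), and Aldh3a1, an aldehyde dehydrogenase (-1.50 ± 0.24, limma adjusted p = 0.000597). Ahrr, also among the 8, was under the noise level on every array, and Nqo1 was under it on MACA 12 h replicate 3 (5.53). Nqo1 also stands in the Nrf2 list, in which 6 of 16 genes were higher and 0 lower at 3 h, with a median log2 fold of 0.59. Slc7a11 and Gclc are among those 6 and stand in the glutathione list too. Against BSA at 3 h, 0 of the 16 were called with limma (1 at an unadjusted p under 0.05) and the median was 0.07. For BSA against HBSS at 3 h the median was 0.58, with 0 called with limma and 8 at an unadjusted p under 0.05. Srxn1, which repairs peroxiredoxins (1.86 ± 0.50, limma adjusted p = 0.0295), and Hmox1, haem oxygenase (1.18 ± 0.25, limma adjusted p = 0.00911), were also among the 6 higher in MACA than in HBSS lungs. At 12 h 3 Nrf2 targets were higher, Hmox1 (0.90 ± 0.25) and Osgin1 (0.79 ± 0.18) included, and 2 were lower, Nqo1 and Blvrb, a biliverdin reductase (-1.12 ± 0.29).

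Of all genes, 10.1% were called lower in MACA than in HBSS lungs at 12 h. Other P450s and their partners had 10 of 20 genes lower and 0 higher in that comparison, with a median log2 fold of -0.52. At 3 h 0 were called with limma, with 8 at an unadjusted p under 0.05 and a median of -0.24. Fmo2, the flavin monooxygenase of lung (-1.16 ± 0.32, limma adjusted p = 0.0162), Cyp2j9 (-0.97 ± 0.17, limma adjusted p = 0.000943), Cyp2d22 (-0.77 ± 0.15, limma adjusted p = 0.00195) and Ephx1, microsomal epoxide hydrolase (-0.72 ± 0.10, limma adjusted p = 0.000268), had the largest changes at 12 h. Against BSA at 12 h 6 of the 20 were lower and 0 higher, where 5.58% of all genes were called lower.

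Enzymes of aldehydes, alcohols and carbonyls went both ways at each time. Of 21 measured, 1 was higher and 3 were lower at 3 h against HBSS: the aldo-keto reductase Akr1b8 (log2 fold 1.32 ± 0.34) was higher, and Aldh1a7 (-0.57 ± 0.17), Adh5 (-0.47 ± 0.14) and Akr1c14 (-0.46 ± 0.13) were lower. At 12 h 1 was higher and 6 were lower. Aldh1a3, a retinal dehydrogenase like Aldh1a1, was higher (2.75 ± 0.68, limma adjusted p = 0.00937), with MACA lungs at 7.49 ± 0.44 (SD, n = 3) and HBSS lungs at 4.74 ± 0.83 (SD, n = 4), the HBSS mean being under the noise level. Adh1, alcohol dehydrogenase (-1.02 ± 0.15), and Cbr3, a carbonyl reductase (-0.92 ± 0.23), were lower, and Adh7 was at least 1.86-fold lower. Of 12 conjugation genes, 1 was higher at 3 h (the exporter Abcc1, 0.76 ± 0.09) and 2 were lower (Nat2 and Papss1), and 2 were lower at 12 h, Sult1a1 (-0.79 ± 0.17) and Ugt2b34, which was under the noise level in both groups.

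**Figure D5:**
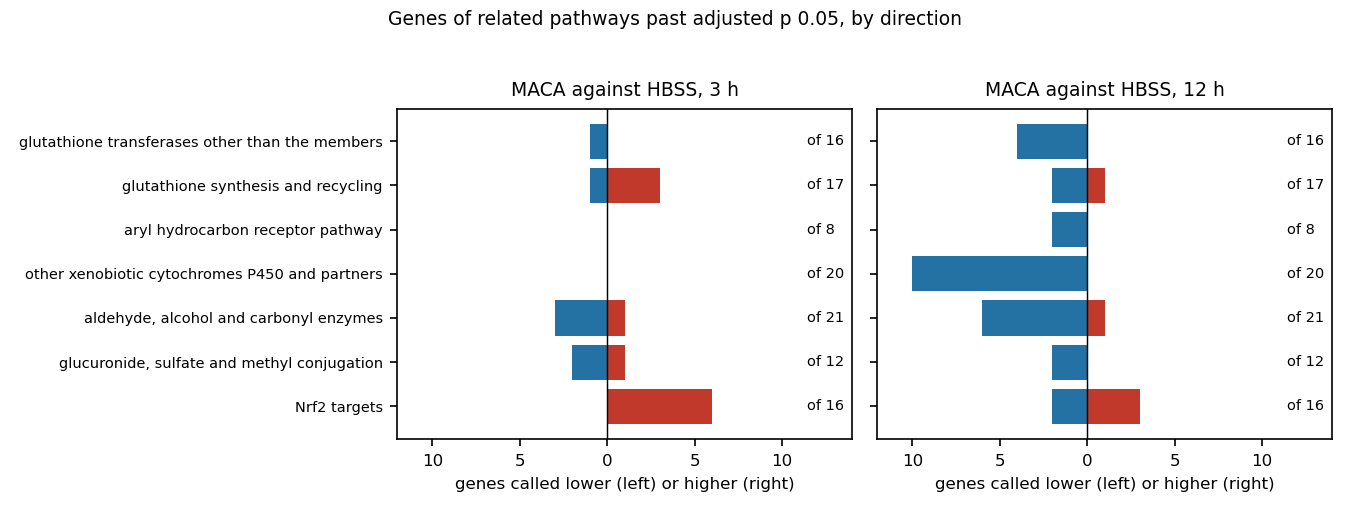
Bars count the genes of each list that passed limma adjusted p under 0.05 in MACA against HBSS lungs, lower to the left and higher to the right, at 3 h and 12 h, with the number measured at the right. The P450 list has 0 calls at 3 h and 10 lower at 12 h, and the Nrf2 list has 6 higher at 3 h.

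Markers of other cells moved with the 12 h differences, and their part in the results was not tested. Of 9 neutrophil markers 4 were higher in MACA than in HBSS lungs at 12 h, with a summed intensity of 4390 to 7880 in MACA lungs and 1840 to 3100 in HBSS lungs. Of 8 macrophage markers 3 were higher and 1 lower (6000 to 7770 in MACA and 4410 to 5780 in HBSS lungs). Of 12 fibroblast and smooth muscle markers 5 were lower (33600 to 36700 in MACA and 38700 to 46100 in HBSS lungs). Of 10 endothelial markers 1 was lower, and their sums did not overlap either (31200 to 34500 in MACA and 35200 to 36800 in HBSS lungs), nor at 3 h (32500 to 34300 in MACA and 36500 to 37000 in HBSS lungs), where 0 were called with limma (3 at an unadjusted p under 0.05).

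Markers of tissue next to the lung differed too. Of 8 fat markers 2 were lower (170 to 260 in MACA and 999 to 2910 in HBSS lungs at 12 h), 3 being under the noise level on all 21 arrays. Of 8 heart muscle markers 4 were lower (5830 to 7670 in MACA and 9980 to 16500 in HBSS lungs). Against BSA at 12 h, heart muscle markers summed to 5830 to 7670 in MACA and 11300 to 15400 in BSA lungs, fat markers to 170 to 260 and 723 to 7170, and neutrophil markers to 4390 to 7880 and 3050 to 6980. The first 2 of these pairs of ranges did not overlap. Liver markers, relevant because Gsta2, Gsta3 and the P450s are also liver genes, had 2 of 7 lower against HBSS at 12 h but were under the noise level on all 21 arrays for 6 of the 7. Squamous epithelium markers were under it for 6 of 8, with 0 of 8 called against HBSS at 12 h (0 at an unadjusted p under 0.05, limma), and their split among the control lungs is given with Cyp2f2.

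Airway and alveolar markers were mostly uncalled at 12 h. Of 19 club cell markers 1 was higher (Retnla, log2 fold 1.87 ± 0.61) and 0 lower, and of 8 ciliated cell markers 0 were called with limma (1 at an unadjusted p under 0.05). Of 9 alveolar type 2 markers 2 were higher and 0 lower. Of these, Sftpc (log2 fold 0.19 ± 0.05) averaged 13.73 in MACA lungs, at the top of the scale as Scgb1a1 was. Of 7 alveolar type 1 markers 1 was higher and 2 were lower. Red cell markers gave 0 calls of 3 (0 at an unadjusted p under 0.05).

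At 3 h, 5 of 9 neutrophil markers were higher in MACA than in HBSS lungs (summed intensity 7660 to 11800 in MACA and 1110 to 3510 in HBSS lungs). Club cell markers gave 2 higher, Nupr1 (log2 fold 2.07 ± 0.47) and Krt15, and 1 lower, the cholecystokinin receptor Cckar (-2.50 ± 0.45). Krt15 was at least 1.1-fold higher, its HBSS arrays being under the noise level. The summed intensity of the club cell markers without members overlapped, at 38500 to 49600 in MACA and 37800 to 46500 in HBSS lungs. That sum includes Nupr1, with mean log2 levels of 12.98 in MACA and 10.91 in HBSS lungs. Scgb3a2 was not called, but its MACA arrays (12.27 to 12.76) lay below its HBSS arrays (12.90 to 13.09). Ciliated cell markers gave 1 higher and 2 lower. Fat, heart muscle and liver markers gave 0 calls with limma at 3 h (0, 0 and 1 at an unadjusted p under 0.05).

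The genes most like each called member were those with the smallest root mean square difference of centred log2 levels over the 21 arrays, among 8910 genes. For Gsta2, whose own deviation was 1.20, they were Itih2 (0.64), Sptssb (0.67) and the club cell list's Nupr1 (0.72). For Gsta3 (own deviation 0.36) they were Aldh6a1 (0.18), Mr1 (0.18) and Mettl7a1 (0.20), and for Gsta4 (0.31) they were Pgrmc1 (0.18), Fhl1 (0.19) and Grpel2 (0.20). Cyp1a1 (0.55) was closest to the P450 Cyp2j9 (0.32), then Aass (0.33) and Vipr2 (0.33). Aldh1a1 (0.25) was closest to Dnajb4 (0.12), Mbtps1 (0.14) and Il15 (0.14).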

How the data were processed

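RNA from 21 lungs was labelled as biotinylated cRNA and hybridised to arrays with Affymetrix-type probe set names, per the labels' protocols. The deposited values are linear intensities with 9.38% to 11.2% of an array below 0, so some background had been subtracted. Which scanner software and which summary were used is not given in the sources used here. From these, 64 control probe sets were left out, values were quantile normalized, values below 0 were set to 0 and log2(intensity + 16) was taken, which understates changes of dim genes. The deposited intensities carry no log2 transform. The noise level (intensity 40.9) is the size that 95% of the negative values stay under. Where a group lay under it on every array, a fold is given as at least that against the noise level.

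The platform annotation gave 20380 of 22626 probe sets 1 gene symbol, 691 several and 1555 none. The brightest probe set stood for each gene. limma 3.58.1 (R 4.3.3) fitted 6 group means with 15 residual degrees of freedom over 11 comparisons, after tests on simulated data. Python 3.11.15 and matplotlib 3.10.9 drew the figures. The labels call the arrays biological replicates. No arrays held identical values.

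Named are all members, up to 4 called genes of each list with the largest MACA to HBSS change at each time, and the 3 genes most like each called member. Members and lists were chosen with earlier results of these data known. Alternatives were other scalings, pseudocounts 1 and 64, a filter on dim genes, all probe sets, the groups of a comparison alone, an intensity trend, the spike-ratio set, a replicate block and leaving out each array. Deviations of same-numbered arrays correlated most in BSA against HBSS at 12 h (0.14 to 0.34 over 4 pairs). Only 2 of those 4 arrays were most like their own number, so it is not shown that the numbers pair the samples.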

Additional observations from a re-analysis of the deposited data

Results flagged for a closer look

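The difference between MACA and HBSS lungs itself differed between the times for Gsta2 and Gsta4. For Gsta2 the change, 12 h minus 3 h, was -4.38 ± 0.68 log2 units (limma adjusted p = 0.00598), from log2 folds of -3.24 at 12 h and 1.14 at 3 h. For Gsta4 it was -1.02 ± 0.19 (limma adjusted p = 0.00973), from -0.88 at 12 h and 0.15 at 3 h. In both genes all 3 MACA 12 h arrays were below all 4 HBSS 12 h arrays. The HBSS 12 h arrays were of the low spike-ratio set and the HBSS 3 h arrays of the high set, so within HBSS time and set cannot be told apart. Of 27 groups of 4 arrays tested over the members, 0 held an array set far apart from the others of its group.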

How the results depend on the processing

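No alternative reversed the direction of a called member. Counts of the 9 genes called moved as follows. Without scaling between arrays, where the median of all genes shifted by -0.57 for MACA against HBSS at 12 h and 0.72 for 12 h against 3 h in HBSS, MACA against HBSS had 0 at 3 h and 8 at 12 h, MACA against BSA 0 at 12 h, BSA against HBSS 4 at 12 h, 12 h against 3 h had 0 in MACA and 8 in HBSS, and the change of MACA against HBSS had 5. Over all genes, MACA against HBSS then had 140 calls at 3 h and 5574 at 12 h, against 1006 and 2509 with scaling, 12 h against 3 h had 93 in MACA and 7672 in HBSS (1331 and 977 with scaling), and the change of MACA against HBSS had 2467 (484 with scaling). In fits of the groups of a comparison alone, MACA against HBSS had 2 at 3 h and 4 at 12 h, MACA against BSA had 1 at 3 h and 0 at 12 h (0 of all genes, against 1196 in the fit of all arrays), and BSA against HBSS had 1 at 3 h. With 75th percentile scaling MACA against HBSS had 4 at 12 h. With the spike-ratio set as a term, MACA against HBSS had 2 at 3 h and 4 at 12 h (Cyp1a1 and Aldh1a1 lost and Gsto1 gained), BSA against HBSS had 1 at 12 h, and the change of MACA against HBSS had 1. Within the high set, MACA against HBSS had 2 at 3 h, MACA against BSA 4 at 12 h, BSA against HBSS 1 at 3 h, 12 h against 3 h in BSA 1, and the change of MACA against BSA 2. BSA against HBSS at 12 h had 1 with pseudocount 64 and 1 with the filter on dim genes. The causes of these shifts were not tested.

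Leaving out 1 array at a time gave 0 to 1 calls for MACA against HBSS at 3 h, 4 to 6 at 12 h, 2 to 4 for MACA against BSA at 12 h (4 without BSA 12 h replicate 1 or replicate 4), and 1 to 2 for 12 h against 3 h in HBSS (2 without HBSS 12 h replicate 3). The replicate block changed no call of a member: MACA against HBSS had 1 call at 3 h and 5 at 12 h, and BSA against HBSS at 12 h had 0 (Gsta3 -0.53, limma adjusted p = 0.0556). For MACA against HBSS at 12 h, Gsta2 (-4.23 to -2.65), Gsta3 (-1.62 to -0.92) and Gsta4 (-1.54 to -0.85) were called under all 10 settings other than leaving out arrays, and also in all 21 fits without 1 array. With no within-set comparison of MACA and HBSS at 12 h, that difference has only the fit with the set as a term. The set effect in that fit comes from the MACA 3 h and BSA 12 h arrays. In BSA 12 h lungs the set cannot be told apart from the split of replicates 1 and 2 from replicates 3 and 4. For Gsta2 and Cyp2f2 that split was also seen in HBSS 12 h lungs, which were all of the low set.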
